A study of Arabidopsis thaliana with 20 samples.

Results

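The sulfur genes described here were 10 nuclear genes of *Arabidopsis thaliana*, taken by their identifiers out of 32744 genes in the count tables. They encode sulfate transporters, the reductases of sulfate assimilation and proteins known for their rise when sulfur runs short. The members were SDI1 (AT5G48850), LSU1 (AT3G49580), LSU2 (AT5G24660), GGCT2;1 (AT5G26220), APR1 (AT4G04610), APR2 (AT1G62180), APR3 (AT4G21990), SULTR1;1 (AT4G08620), SULTR1;2 (AT1G78000) and SULTR4;1 (AT5G13550). All 10 had a row in every table, and 8 of them passed a minimum mean of 10 counts per library. The root-type SULTR1 transporters did not pass it.

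The counts came from total RNA of whole rosettes of wild type plants, of accession Col-0 by the study's methods. They grew in soil on Phenoscope, a robot that weighs and waters pots. The plants were kept for 8 days before the transfer, then for 19 days on Phenoscope at 60% soil water, and were watered with nitrate at 2.5 mM (N-limiting, 10 libraries) or at 5 mM (N-sufficient, 10 libraries). Each N-sufficient table held the same 32744 values as the N-limiting table of the same number, so 10 libraries remained and the nitrogen supplies could not be compared. The study uses these counts as replicates of nitrogen deficiency, and they are called N-limiting here on that basis and on the labels. GEO's design text counts 5 biological replicates, whereas the labels count 10. No source used here says which plants went into a library, so every p-value below measures the spread between these 10 libraries, which may be partly technical.

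The libraries held 41423334 to 60323158 counts, of which 63.9 to 72.3% fell on chloroplast genes and 11000694 to 19583758 counts on nuclear genes. Values are given as CPM, counts per 1000000 counts of the library, after TMM scaling, a factor per library that evens out the bulk of genes and ranged between 0.802 and 1.27. The tissue label was checked on marker genes. The 4 leaf markers summed to 12638 to 20486 CPM. The 6 root markers summed to 0.0488 to 0.263 CPM, with RHD6, EXPA7 and IRT1 at 0 in all 10 libraries, and the 3 flower markers to 0.0488 to 0.151 CPM. In a whole rosette, fewer cells of a type and less RNA per cell cannot be told apart.

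Plants take up sulfate through SULTR1 transporters, which act mainly in roots, and release it from the vacuole through SULTR4 transporters. ATP sulfurylase activates sulfate to adenosine 5′-phosphosulfate (APS), APS reductase (the APR enzymes) reduces APS to sulfite, and sulfite reductase makes the sulfide that is built into cysteine and then into glutathione and methionine. Under sulfur shortage the transcription factor SLIM1 raises a set of transcripts. Among them are SDI1, which lowers the synthesis of glucosinolates, the small LSU proteins, and the gamma-glutamyl cyclotransferase GGCT2;1 that breaks down glutathione.

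The sequence before each gene is shown for 4 members, because the 10 genes are known for a shared response and the letters they share can be read there. The windows are the 250 bases before the RefSeq gene start in the TAIR10.1 assembly, read 5′ to 3′ on the strand of the gene. Position -1 is the base next to the gene start. Capitals mark GAGAC, the core of the sulfur-responsive element (SURE), and ACGTG, found in G-box elements, on either strand, so that GTCTC and CACGT are the same motifs read from the other strand. SDI1 and the cyclotransferase gene were chosen because they hold both motifs, LSU2 as another deficiency gene with neither, and APR2 as the most abundant member. None of the 10 windows overlapped another annotated gene. In the window of SDI1 (chr5:19807854-19808103, minus strand), GAGAC lies at -23 and ACGTG at -57, -35 and -12. The window of GGCT2;1 (chr5:9164885-9165134, minus strand) holds GAGAC at -79 and ACGTG at -122. The windows of LSU2 (chr5:8444102-8444351, minus strand) and APR2 (chr1:22977886-22978135, minus strand) hold no match.
SDI1: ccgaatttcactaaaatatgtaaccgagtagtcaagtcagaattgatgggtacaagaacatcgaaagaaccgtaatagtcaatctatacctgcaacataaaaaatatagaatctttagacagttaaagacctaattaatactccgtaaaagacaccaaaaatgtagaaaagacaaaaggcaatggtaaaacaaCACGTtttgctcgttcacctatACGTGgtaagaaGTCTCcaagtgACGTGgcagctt
GGCT2;1: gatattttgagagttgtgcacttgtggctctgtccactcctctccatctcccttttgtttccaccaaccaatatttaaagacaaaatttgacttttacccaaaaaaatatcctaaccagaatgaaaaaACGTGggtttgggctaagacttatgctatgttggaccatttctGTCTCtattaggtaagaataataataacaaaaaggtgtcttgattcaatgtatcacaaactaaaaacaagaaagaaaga
LSU2: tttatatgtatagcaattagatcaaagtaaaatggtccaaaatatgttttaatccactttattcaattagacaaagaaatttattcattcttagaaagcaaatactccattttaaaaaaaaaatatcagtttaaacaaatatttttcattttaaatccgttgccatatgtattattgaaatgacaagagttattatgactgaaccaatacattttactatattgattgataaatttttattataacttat
APR2: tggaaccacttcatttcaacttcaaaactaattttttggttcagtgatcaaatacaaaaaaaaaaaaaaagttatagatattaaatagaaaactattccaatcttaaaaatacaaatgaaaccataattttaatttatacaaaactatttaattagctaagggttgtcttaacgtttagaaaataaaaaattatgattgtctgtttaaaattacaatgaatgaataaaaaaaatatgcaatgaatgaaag

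Over the 10 members, 2 windows held GAGAC, as shown above, and 5 held ACGTG, namely those 2 and LSU1, SULTR1;1 and SULTR4;1. The other 5 windows, those of LSU2, SULTR1;2 and the 3 APR genes, held neither. Among 27438 windows of the same length before protein-coding nuclear genes, 25.8% held GAGAC and 22.9% held ACGTG. A match is a description of the letters and not a binding site, and the members' shares were not tested against this background.

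The transcripts of the APS reductases stood highest and those of the root-type sulfate transporters lowest, with the deficiency genes between them. Levels were compared between genes as CPM per kilobase of coding sequence. In that unit APR2 averaged 65.0 ± 7.54, APR1 30.7 ± 3.37, APR3 22.1 ± 2.47 and LSU2 15.2 ± 2.51 (SD, n = 10 libraries here and below). GGCT2;1 followed with 5.93 ± 0.862, SULTR4;1 with 4.39 ± 0.403, LSU1 with 2.49 ± 0.554 and SDI1 with 0.931 ± 0.225. SULTR1;2 averaged 0.0947 ± 0.041 in the same unit, and SULTR1;1 had only 2 counts in all libraries together. Each of the 9 neighbouring pairs in this order kept its order in 10 of 10 libraries. The ranges of neighbours nevertheless overlapped for APR1 and APR3, for APR3 and LSU2, and for GGCT2;1 and SULTR4;1 when libraries were not matched. Within libraries the ratio of these neighbours was 1.21 to 1.73 for APR1 over APR3, 1.18 to 1.89 for APR3 over LSU2 and at least 1.05 for GGCT2;1 over SULTR4;1. When exon length replaced coding length, SULTR4;1 averaged 3.77 and GGCT2;1 3.15 CPM per exon kilobase, with the transporter the higher in 9 of 10 libraries. LSU1 and SDI1 lay closer together in that unit, with 0.792 ± 0.176 and 0.704 ± 0.170 CPM per exon kilobase.

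**Figure D1:**
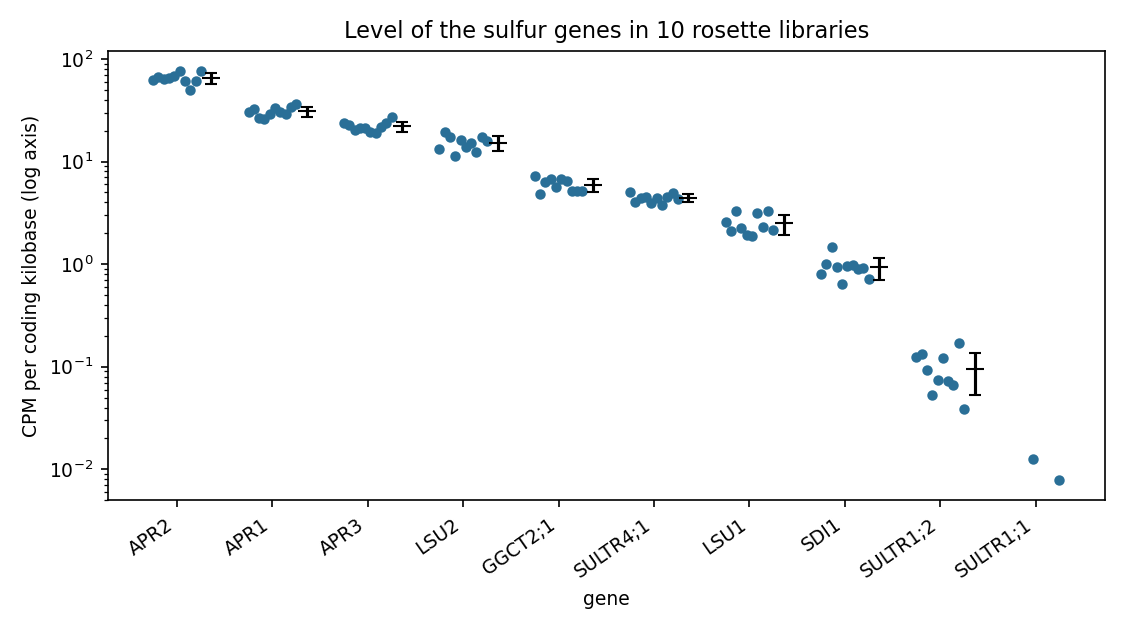
Level of each sulfur gene in CPM per kilobase of coding sequence (log axis), with 1 point per N-limiting library in order of replicate number and a bar for mean ± SD (n = 10). APR2 lies highest with a mean of 65.0 and SULTR1;2 at 0.0947, while for the last gene only the 2 libraries with a count are drawn, without a bar, because 8 libraries are at 0.

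APS reductase catalyses the committed step of sulfate reduction, and its 3 genes kept the same order of level in every library. APR2 (chr1:22975530-22977885, minus strand), which encodes the isoform known for most of the leaf activity, had a lowest CPM of 68.5 in replicate 8, a median of 87.1 and a highest of 103 in replicate 10. APR1 (chr4:2324878-2327064, plus strand) ranged between 36.3 CPM in replicate 4 and 51.2 CPM in replicate 10, with a median of 42.1 CPM. APR3 (chr4:11657008-11659167, minus strand) ranged between 25.9 CPM in replicate 7 and 37.3 CPM in replicate 10, with a median of 29.5 CPM. Replicate 10, the deepest library, was thus the highest of the 10 for all 3 genes after scaling for depth, and a different library was the lowest for each. The part of depth in this was not tested. Per coding kilobase, APR2 made up 55.1 ± 2.91% of the summed APR transcripts, APR1 26.1 ± 1.81% and APR3 18.8 ± 1.79%. The geometric mean ratio of these levels over libraries was 2.11 for APR2 over APR1 (1.73 to 2.49) and 1.39 for APR1 over APR3 (1.21 to 1.73). Each APR gene overlaps an annotated gene on the opposite strand, and the strand setting of the counting is not given in the sources used here. The most abundant of these partners averaged 141.9 counts against 2011 for APR1, 7.5 against 4119 for APR2 and 265.2 against 1428 for APR3. How reads shared between the similar APR sequences were counted is not given either, so the split among them carries that uncertainty.

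Among the transporters, the vacuolar exporter was readily measured and the uptake transporters were not. SULTR4;1 (chr5:4355276-4359692, minus strand) had a lowest CPM of 7.78 in replicate 7, a median of 8.99 and a highest of 10.4 in replicate 1, the narrowest relative range of the 8 genes that passed the minimum. It made up 80.2 ± 2.17% of the summed level of itself and its homologue SULTR4;2 per coding kilobase. SULTR1;2 (chr1:29327515-29333220, plus strand), a high-affinity sulfate transporter of the root surface, had 5 to 16 counts per library and 84 in all. Its level ranged between 0.0766 CPM in replicate 10 and 0.335 CPM in replicate 9, with a median of 0.164 CPM, a span that overlapped the 0.0488 to 0.263 CPM of the summed root markers. SULTR1;1 (chr4:5500313-5506313, plus strand), the root transporter known for its strong rise under sulfur shortage, had 1 count in replicate 5, 1 in replicate 10 and 0 in the other 8 libraries. These 2 counts among 460014912 have an exact 95% Poisson interval of 0.242 to 7.22 counts, or 0.000527 to 0.0157 CPM, which covers counting error only.

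The genes known as markers of sulfur shortage were expressed at low to moderate levels. LSU2 (chr5:8443279-8444101, minus strand), of the small family named for its response to low sulfur, ranged between 3.19 CPM in replicate 4 and 5.45 CPM in replicate 2, with a median of 4.35 CPM. Its homologue LSU1 (chr3:18374908-18375940, minus strand) had a lowest CPM of 0.530 in replicate 6, a median of 0.642 and a highest of 0.933 in replicate 3. Per coding kilobase, LSU2 made up 74.9 ± 1.88% of the 4 LSU genes, LSU1 12.5 ± 2.65%, LSU4 7.04 ± 1.21% and LSU3 5.60 ± 1.52%. LSU2 was the predominant member of the family in each library, at 71.5 to 77.3%. As for the APR genes, the treatment of reads shared between these homologues is not given in the sources used here. GGCT2;1 (chr5:9162969-9164884, minus strand) ranged between 3.11 CPM in replicate 2 and 4.70 CPM in replicate 1, with a median of 3.86 CPM.

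SDI1 (chr5:19805437-19807853, minus strand), the repressor of glucosinolate synthesis, was the least abundant of the deficiency genes per coding kilobase, with 24 to 45 counts per library. In CPM without division by length, SDI1 averaged 0.855 and LSU1 0.702. The level of SDI1 was 0.586 CPM in replicate 5, the lowest, had a median of 0.851 and was 1.35 CPM in replicate 3, the highest. The other 9 libraries lay between 0.586 and 0.920 CPM. The gap between replicate 3 and the next library was 0.566 of the whole range after TMM scaling and 0.243 of it on total counts with no scaling factor, and the raw count was 45 in replicate 3 and 44 in replicate 7. It was also the library with the fewest counts in all (41423334), the fewest nuclear counts (11000694) and the largest chloroplast share (72.3%), and the part of these in its SDI1 value was not tested.

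The sulfur genes varied between libraries within the range of other genes, for which the 5th and 95th percentiles of the spread below were 6.91% and 38.8%. Their coefficient of variation (CV, SD over mean of CPM) had a median of 13.1% over the 8 genes that passed the minimum, beside 15.5% over all 18442 genes that passed it, and 3 of the 8 lay above that median. The CV of the vacuolar exporter was lowest with 9.17%, followed by APR1 with 11.0%, APR3 with 11.2%, APR2 with 11.6%, the cyclotransferase with 14.5%, LSU2 with 16.5%, LSU1 with 22.3% and SDI1 with 24.2%. Counting error alone gives a CV of 16.1% at the depth of SDI1 and 17.5% at that of LSU1, against 1.56% for APR2. The chi-square of the counts per degree of freedom, which is near 1 where libraries differ by counting error only, was 1.48 for LSU1, 1.97 for SDI1, 3.65 for the vacuolar exporter and 3.97 for the cyclotransferase. It was 5.32 for LSU2, 20.1 for APR3, 25.4 for APR1 and 58.1 for APR2. The median of this ratio was 4.64 over the 8 genes and 3.55 over all genes tested. This ratio grows with the counts of a gene, so the high values of the APR genes go with their depth, and their CV lay below the median of all genes. Without replicate 3, SDI1 had a CV of 14.4% and a ratio of 0.791.

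**Figure D2:**
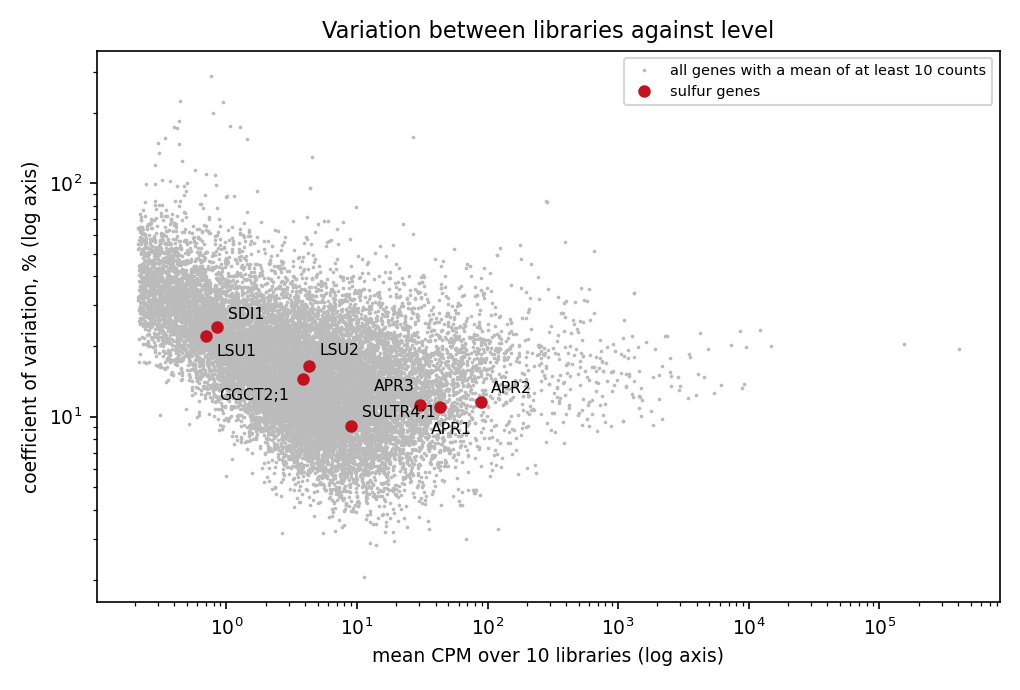
Coefficient of variation in percent against mean CPM over the 10 N-limiting libraries, both on log axes, for 18442 genes (grey) and the 8 sulfur genes that passed the minimum (red). The red points lie inside the cloud, with the vacuolar exporter at 9.17% and SDI1 at 24.2%.

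Whether the sulfur genes moved together between libraries was asked with SDI1, the usual marker of sulfur shortage, as the reference. The slope of every gene on the log2 CPM of SDI1 was tested with edgeR's quasi-likelihood test, and p-values were adjusted by Benjamini-Hochberg over 18441 genes. At an adjusted p under 0.05, 2 genes (0.0108% of those tested) were called, and 0 of the 7 other sulfur genes that passed the minimum. At an unadjusted p under 0.05 there were 2140 genes (11.6%) and 0 sulfur genes, and DESeq2 called 0 sulfur genes as well. Both called genes, named after their values were seen, rested on replicate 3. KTI1 (AT1G73260), a trypsin inhibitor, had 232 counts there and 6 to 19 elsewhere (slope 5.48, edgeR adjusted p = 0.00329). ELI3-2 (AT4G37990), an elicitor-activated dehydrogenase, had 234 counts there and 0 to 12 elsewhere (slope 8.35, edgeR adjusted p = 0.00542). Without replicate 3, 0 genes were called, and without replicate 5, the library with the lowest SDI1, 373 were.

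The same fit was run with each of the other sulfur genes that had enough counts as the reference. Over all 9 fits, 64 slopes of a sulfur gene on another were tested. They covered 36 pairs, most of them in both directions, over the same 10 libraries. Of these slopes, 0 were called by edgeR at an adjusted p under 0.05, 0 had an unadjusted p under 0.05, and 0 were called by DESeq2. With every reference other than SDI1 and SULTR4;1, edgeR called 0.0% of genes, while 1.06% (GGCT2;1) to 11.3% (APR3) had an unadjusted p under 0.05. DESeq2 called 11 genes with LSU2, 7 with APR2, 1 with LSU1 and 1 with APR3. Without replicate 9, edgeR called 808 genes with LSU2. Against SULTR4;1 edgeR called 2118 genes (11.5%), of which 1319 (7.15%) rose and 799 (4.33%) fell as it rose, and 0 of the 7 other sulfur genes were among them. That count was 1181 with the chloroplast share as a second covariate and ranged between 137 without replicate 9 and 3458 without replicate 3. A missed threshold in 10 libraries of 1 condition does not show that the genes vary independently.

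**Figure D3:**
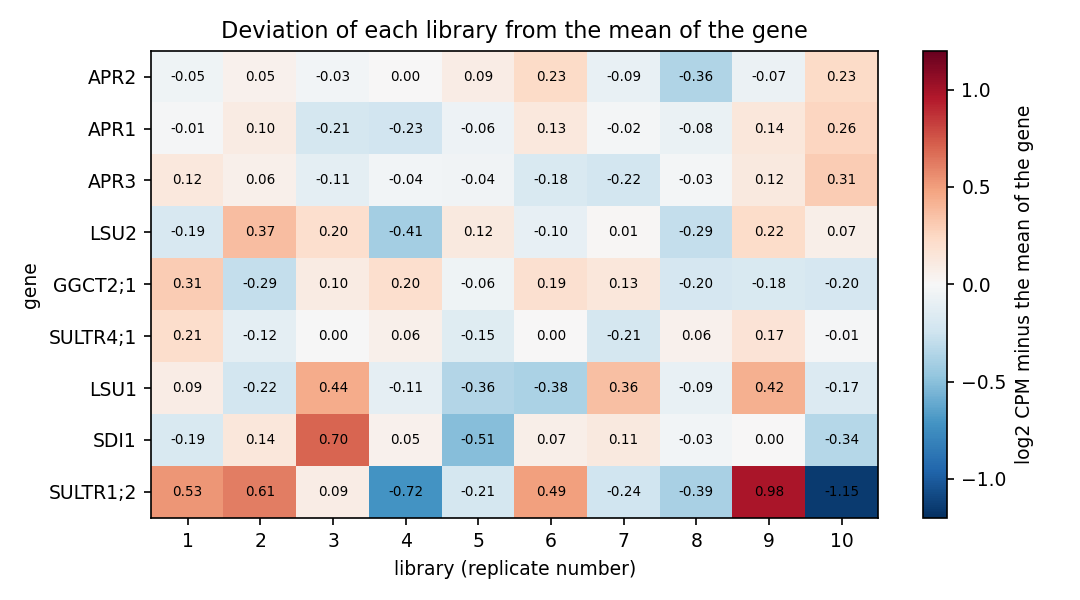
Deviation of each N-limiting library (columns, replicate number) from the mean log2 CPM of each sulfur gene (rows), in log2 units. SDI1 is highest in replicate 3, the 3 APR genes are all above their mean in replicate 10, and SULTR1;2, with 5 to 16 counts per library, shows the widest swings.

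The correlations among the sulfur genes were of both signs and imprecise over 10 libraries. Of 45 pairs, 36 were computed on log2 CPM over the 10 libraries, leaving out the 9 with SULTR1;1. Pearson's r ranged between -0.54 and 0.57 with a median of 0.15, and 22 pairs were positive. The approximate 95% interval of the highest r, SDI1 with LSU1, was -0.10 to 0.88. That of the lowest, LSU2 with GGCT2;1, was -0.87 to 0.14. In permutation tests (two-sided, 100000 resamples), 0 of 36 pairs had p under 0.05 by Pearson's r and 1 by Spearman's rho, LSU1 with APR2 (rho = -0.72, permutation p = 0.0233, and r = -0.44, permutation p = 0.203). That pair was named after its values were seen.

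The highest r was that of SDI1 with LSU1. It was 0.57 (permutation p = 0.0849), with rho = 0.31 (permutation p = 0.386). Without replicates 3 and 5, the libraries farthest from the median of SDI1, r was 0.07. It was 0.33 without replicate 3 alone and 0.45 without replicate 5 alone. Leaving out these libraries also narrows the range of SDI1, which by itself can lower r. The edgeR adjusted p over all genes for the slope of LSU1 on SDI1 was 0.497. SDI1 with APR3 gave r = -0.47 (permutation p = 0.166) and rho = -0.52 (permutation p = 0.134), and r was -0.78 without the same 2 libraries. SDI1 with APR1 gave r = -0.43 (permutation p = 0.219) and rho = -0.22 (permutation p = 0.536), and r was -0.40 without them. For SDI1 with APR2, r was -0.22 (permutation p = 0.529) and rho -0.19 (permutation p = 0.609), with r = -0.22 again without them. With SULTR1;2 r was 0.26 (permutation p = 0.475), rho 0.30 (permutation p = 0.405) and r without them 0.40. With LSU2 r was 0.18 (permutation p = 0.629), rho 0.27 (permutation p = 0.448) and r without them 0.14. With GGCT2;1 r was 0.18 (permutation p = 0.643), rho 0.04 (permutation p = 0.918) and r without them 0.05. With SULTR4;1 the r of SDI1 was 0.00 (permutation p = 0.993), rho -0.18 (permutation p = 0.631) and r without them -0.44. None of these pairs with SDI1 had a permutation p under 0.05, which in 10 libraries does not show that the genes vary independently of SDI1. Counting error in SDI1 limits these r values as well. Without replicate 3 its CV was 14.4%, beside 16.1% from counting error alone at its mean depth over the 10 libraries.

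Among the 28 pairs without SDI1, the highest r values were those of APR1 with the other APR genes, while APR2 with APR3, named after its values were seen, had r = 0.19 (permutation p = 0.593) and rho = 0.12 (permutation p = 0.761), and r was -0.31 without replicates 8 and 10. APR1 with APR3 had r = 0.54 (permutation p = 0.108) and rho = 0.47 (permutation p = 0.178), and r was 0.28 without replicates 4 and 10. APR1 with APR2 had r = 0.48 (permutation p = 0.158) and rho = 0.37 (permutation p = 0.295), and r was 0.39 without the same libraries. APR3 with SULTR4;1 had r = 0.44 (permutation p = 0.207) and rho = 0.47 (permutation p = 0.180), and r was 0.46 without replicates 7 and 10. LSU2 with SULTR1;2 had r = 0.43 (permutation p = 0.214) and rho = 0.56 (permutation p = 0.0967), and with APR1 r = 0.40 (permutation p = 0.251) and rho = 0.42 (permutation p = 0.234). Without replicates 4 and 8 these 2 values of r were 0.14 and -0.03.

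Among the 28 pairs without SDI1, GGCT2;1 was in each of the 3 lowest. With LSU2 it had r = -0.54 (permutation p = 0.109) and rho = -0.60 (permutation p = 0.0726), and r was -0.83 without replicates 4 and 8. With APR3 it had r = -0.46 (permutation p = 0.178) and rho = -0.36 (permutation p = 0.314), and r was -0.75 without replicates 1 and 2. With APR1 it had r = -0.46 (permutation p = 0.181) and rho = -0.37 (permutation p = 0.295), and r was -0.49 without replicates 1 and 2.

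**Figure D4:**
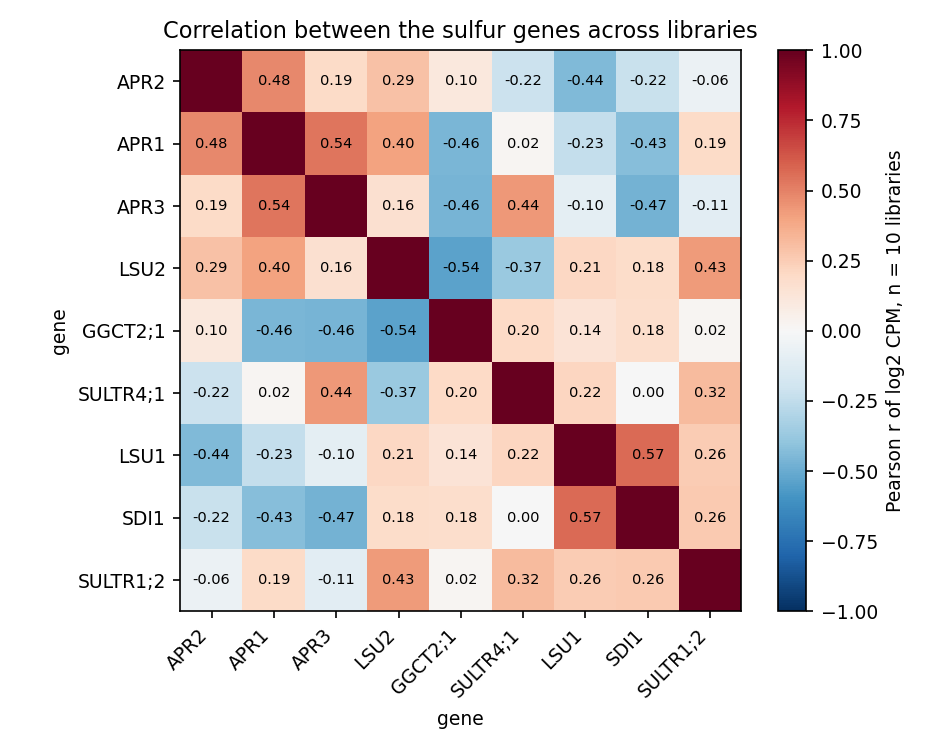
Pearson's r of log2 CPM over the 10 N-limiting libraries for the 36 pairs of 9 sulfur genes, without the gene that had only 2 counts. Values run between -0.54 (LSU2 with the cyclotransferase) and 0.57 (SDI1 with LSU1), and in permutation tests of r none of the pairs passed.

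The genes outside the list with the highest r to each member across the 10 libraries are named here. Far more genes than members were compared, so higher values outside the list follow from their number. For SDI1 the 10 highest r values were those of AT5G16410 (0.94), AT2G36300, AT3G11530, AT1G32920, AT2G40530, AGP24 (AT5G40730, an arabinogalactan protein), AT4G22380, AT5G47030, AT1G29310 and AT5G01775 (0.91), and the 5 lowest those of IQD17 (AT4G00820, r = -0.95), AT5G21222, LUG, IDD4 and AT3G09310. SULTR4;1 was closest to SEC (AT3G04240, r = 0.98), an O-linked N-acetylglucosamine transferase, ACD5 (AT5G51290, 0.97), a ceramide kinase, and RLK (AT5G67280, 0.96), a receptor-like kinase. For APR1 the 3 closest were AT1G29600 (0.94), AT3G10820 (0.90) and NFS1 (AT5G65720, 0.89), the mitochondrial cysteine desulfurase. Those of APR2 were AT3G48480 (0.94), AT5G61830 (0.92) and AT5G20600 (0.91). APR3 was closest to AT4G36960 (0.95), EXO70F1 (0.93) and AT3G27700 (0.92). LSU2 was closest to AT5G01880 (0.92), ASIL2 (0.92) and WRKY7 (0.92), LSU1 to AT1G16000 (0.87), AT1G28250 (0.87) and AT5G44565 (0.86), and GGCT2;1 to AT3G02010 (0.87), UGT73C7 (0.85) and AT4G08790 (0.83). SULTR1;2 was closest to GATA10 (0.87), EPF2 (0.87) and TBL13 (0.86). These are extremes among all genes outside the list that passed the minimum, over 10 libraries that share their depth and scaling, and are given as a description. The 5th and 95th percentiles of r over the same genes outside the list were -0.68 and 0.63 for SDI1, and -0.77 and 0.77 for the vacuolar exporter. They were -0.52 and 0.52 for LSU1, whose r with SDI1 was 0.57, a value inside the range for SDI1. For the cyclotransferase they were -0.45 and 0.40, and its 3 lowest pairs given above, picked as the lowest, lay below them. The same 3 pairs lay inside the ranges of their partners. Those were -0.62 and 0.62 for LSU2, -0.63 and 0.63 for APR3, and -0.52 and 0.54 for APR1.

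The rest of the pathway was read from 38 further genes of sulfate transport, assimilation, cysteine, glutathione and methionine synthesis and the sulfur-deficiency response. Of these, 34 passed the minimum, and none was at 0 in all libraries. The most abundant were sulfite reductase SIR with 147 ± 12.6 CPM, ATP sulfurylase ATPS1 with 129 ± 8.62 CPM and CGS1, the first enzyme of methionine synthesis, with 120 ± 3.99 CPM. With SDI1 as the reference, 0 of 34 were called in either direction by edgeR. An unadjusted p under 0.05 was found for 3 of 34, beside 11.6% of all genes. Named after their values were seen, 2 of them fell as SDI1 rose, SLIM1 (slope -0.78, edgeR unadjusted p = 0.00696) and SDI2 (slope -0.44, edgeR unadjusted p = 0.00696). The third, SERAT1;1, rose (slope 0.27, edgeR unadjusted p = 0.0496). In replicate 3, the library with the highest SDI1, SLIM1 and SDI2 had their lowest CPM and SERAT1;1 its highest. Without replicate 3, 416 of 18470 genes had an edgeR unadjusted p under 0.05 with SDI1, against 2140 with it. In the fit on all 10 libraries, the median slope on SDI1 was 0.07 over the list and -0.01 over all genes tested. With the vacuolar exporter as the reference, 0 of 34 rose and 2 fell. They were SULTR2;1 (slope -2.12 ± 0.477, SE, edgeR adjusted p = 0.0184), a transporter of the vascular tissue, and GGCT2;2 (slope -1.64 ± 0.359, SE, edgeR adjusted p = 0.0172), a homologue of the member above, both named after their values were seen. The share of 2 in 34 stands beside the 4.33% of all genes that fell. The median slope on the exporter was -0.19 over the list and -0.01 over all genes tested. In each of the other 7 fits edgeR called 0 of the 34.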

How the data were processed

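RNA was depleted of ribosomal RNA and made into stranded libraries, per the labels. The authors' aligner was STAR, and their processing notes also name the TAIR10 build and, for 1 of the 20 samples, featureCounts. The deposited values are raw counts per gene, without normalization. Options for strand and for reads with several positions are not given in the sources used here. The 10 N-sufficient tables repeat the N-limiting ones and were not used as replicates.

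The members and lists were chosen with earlier results of these data known. Counts were scaled by TMM in edgeR 4.0.16 (R 4.3.3). Slopes on a centred log2 CPM (prior count 2) were tested by edgeR's quasi-likelihood test over genes averaging 10 or more counts, with Benjamini-Hochberg adjustment and a threshold of 0.05. SULTR1;1 could not serve as reference. Fits were tested on simulated data with slopes planted in 200 genes. With SDI1 as the reference, 2 of the 200 were called at a planted slope of 1 and 152 at 4. Genes without a planted slope were called as well, 2 at 1 and 7 at 4. With APR3 as the reference, 0 of the 200 were called at 1 and 174 at 4, beside 0 and 9 genes without a planted slope. Slopes of 1 were thus mostly missed. DESeq2 1.42.0 was an alternative, beside other scalings, minimum means of 100 or none, a prior count of 0.5, the chloroplast share as covariate and leaving out each library. Permutation tests used NumPy 2.4.6, with ranks for rho from SciPy 1.17.1, which also gave the Poisson interval.

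Coding length is 3 times the longest RefSeq protein, and gene positions and windows are from TAIR10.1, whose build name differs from the authors'. Named pairs are those with SDI1 and, of the rest, the 5 highest and 3 lowest r. Named similar genes are the 10 highest and 5 lowest for SDI1 and the 3 highest for each other member. Of the wider list, the 3 most abundant genes are named by rule. Those called with SDI1 were also to be named, and there were 0.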

Additional observations from a re-analysis of the deposited data

Results flagged for a closer look

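For SDI1, the highest library, replicate 3, lay apart from the other 9 after TMM scaling. The gap between it and the next library was 0.566 of the whole range of CPM, above the critical value that Dixon's criterion sets for 10 values. On total counts with no scaling factor the gap was 0.243, below that value, and the raw count was 45 in replicate 3 and 44 in replicate 7. Both ends of 9 sulfur genes were examined, 18 in all, and 1 passed. Chance passes about 1 in 20 groups.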

How the results depend on the processing

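No paired analysis was possible because the N-sufficient tables repeat the N-limiting counts of the same number. In all 153 alternative fits, 0 sulfur genes were called. The number of genes that varied with SDI1 was 2, against 11 with no minimum, 0 with a minimum mean of 100, 10 by the DESeq2 Wald test, 0 with the chloroplast share as a second covariate, and 0 (without replicate 3) to 373 (without replicate 5) when libraries were left out. With SULTR4;1 it was 2118, against 1181 with the chloroplast share, and 137 (without replicate 9) to 3458 (without replicate 3) when libraries were left out. It was also lower by over 1.5 times without replicate 1 (292), 2 (491), 4 (1365), 5 (1405) or 7 (514). With LSU2 it was 0, against 11 by DESeq2 and up to 808 without replicate 9, with 12 without replicate 6. DESeq2 gave 7 with APR2, 1 with LSU1 and 1 with APR3, and the chloroplast share gave 1 with APR2. The cause of these changes was not tested. The median CV of the sulfur genes was 19.0% on total counts with no scaling factor, against 13.1%. The exon length and the SDI1 gap under other scalings were added after seeing the data. Exon length lowered 9 levels by more than their SD, as its construction gives. The SDI1 gap of 0.566 was 0.564 with DESeq2 size factors and 0.566 on nuclear genes, and 0.243 on total counts, below the limit. Of 556 alternative values, 524 were labelled the same as the main one. For a count of genes this means equal or within 1.5 times. For other values it means a move by no more than the spread, or the same side of the limit. The 556 include 153 counts of sulfur genes called, each 0 as in the main fit. Depth limited SDI1, LSU1, SULTR1;2 and SULTR1;1, whose counts per library were at most 45, 44, 16 and 1.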

Other observations

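BGLU30, a beta-glucosidase gene of the wider sulfur list, was too low to be tested, with 14 counts in all, of which 11 were in replicate 3. It was singled out after its values were seen, and was at 0 in 7 libraries. Replicate 3 was also the library with the highest SDI1, KTI1 and ELI3-2. Other regulators and deficiency genes of the wider list did not follow this. SLIM1, SDI2, SHM7 and BGLU28 had their lowest CPM in replicate 3, and LSU3 and LSU4 were neither highest nor lowest there. The other genes of the wider list below the minimum mean were BGLU28 with 27 counts in all, SULTR3;2 with 71 and SULTR1;3 with 8.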
